A study of Mus musculus with 4 samples.

Results

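Open chromatin that lay between genes, away from transcript starts, and was called at d2 but not at d4 of cardiogenic differentiation of mouse embryonic stem cells is described here. Members were chosen by the peak calls themselves. Peaks of the 4 libraries that shared at least 1 bp were joined into 40910 union regions, and a region was kept when both d2 libraries and no d4 library had a peak in it, when it lay more than 1000 bp from every transcript start, and when it overlapped no gene body of GENCODE release M21. This left 1819 regions of 40910, out of 11065 intergenic distal regions in all. The presence of a peak at d2 and its absence at d4 are therefore not findings, whereas position, base composition, motifs and neighbouring genes were not used in the choice.

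The d4 libraries came from ES-E14TG2a cells, a wild-type (WT) mouse embryonic stem cell line, that had been dissociated at d2 and reaggregated in serum-free medium with human Activin A, BMP4 and VEGF. The d2 libraries came from the same line after culture as embryoid bodies in the same serum-free medium without these factors. Each time point had 2 libraries from separate differentiation experiments, assayed by ATAC-seq, in which a transposase cuts accessible DNA, and nothing is known from them about single cells. By the study's account endothelial cells (ECs) are only a small part of the d4 culture, so that in these bulk samples a site open in fewer cells and a site less open in every cell cannot be told apart.

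Distal accessible regions are often enhancers, stretches of DNA where transcription factors bind and act on promoters that may be far away. In embryonic stem cells many enhancers are bound by OCT4 (Pou5f1) together with SOX2, and as cells leave the naive state for the epiblast-like state OCT4 is redirected to further sites together with OTX2. As mesoderm differentiates these factors decline over time, and GATA, forkhead, ETS and T-box factors act at other sites. Which factors bound the regions described here was not tested. The nearest gene is only a label for such a region, since enhancers can skip genes.

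The windows of 7 regions are printed first, each covering 100 bases to either side of the summit of the stronger d2 peak, on the plus strand of GRCm38 (mm10), because 6 of them carry motifs more frequent here than in regions called only at d4. They are the 3 strongest regions with the OCT4-SOX2 composite (TTGTNATGC), the strongest remaining ones with the octamer (ATGCAAAT), the CTCF motif (AGGNGGCGC) and the ZEB and SNAI E-box (CAGGTG), and the strongest region whose nearest protein-coding gene was on a list of pluripotency genes. Capitals mark the motif named for each, read on either strand, and the last window, near Mycn, held none of the 31 motifs searched.
OCT4-SOX2 composite, 758 kb from Ythdf3, chr3:16941324-16941524: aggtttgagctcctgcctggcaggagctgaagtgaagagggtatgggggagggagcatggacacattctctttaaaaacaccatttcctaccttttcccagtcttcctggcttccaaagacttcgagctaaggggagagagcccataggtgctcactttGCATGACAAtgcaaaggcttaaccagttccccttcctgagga
OCT4-SOX2 composite, 315 kb from Lcorl, chr5:46172416-46172616: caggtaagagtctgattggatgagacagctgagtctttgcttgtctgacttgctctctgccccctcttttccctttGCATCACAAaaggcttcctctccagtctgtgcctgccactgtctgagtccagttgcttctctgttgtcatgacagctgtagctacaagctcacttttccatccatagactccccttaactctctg
OCT4-SOX2 composite, 18.02 kb from Klf13, chr7:63957093-63957293: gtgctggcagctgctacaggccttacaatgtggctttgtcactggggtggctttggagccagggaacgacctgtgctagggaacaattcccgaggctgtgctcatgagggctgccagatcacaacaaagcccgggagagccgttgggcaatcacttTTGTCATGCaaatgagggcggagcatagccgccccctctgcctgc
octamer, 7.64 kb from Slc9a9, chr9:94661798-94661998: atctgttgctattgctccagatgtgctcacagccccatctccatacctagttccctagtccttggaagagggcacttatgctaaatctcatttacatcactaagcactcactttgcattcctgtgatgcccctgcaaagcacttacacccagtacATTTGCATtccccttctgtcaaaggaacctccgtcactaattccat
CTCF motif, 31.5 kb from Marc1, chr1:184777147-184777347: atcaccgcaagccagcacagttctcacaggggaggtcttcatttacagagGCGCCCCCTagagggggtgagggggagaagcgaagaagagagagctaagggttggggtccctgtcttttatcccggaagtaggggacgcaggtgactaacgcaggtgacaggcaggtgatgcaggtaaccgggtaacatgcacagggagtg
ZEB and SNAI E-box, 77.4 kb from Cdh11, chr8:102863138-102863338: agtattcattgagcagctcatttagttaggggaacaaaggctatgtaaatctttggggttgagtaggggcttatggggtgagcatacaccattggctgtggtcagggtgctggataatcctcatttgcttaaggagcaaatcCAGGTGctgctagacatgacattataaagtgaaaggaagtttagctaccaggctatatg
no motif, 13.0 kb from Mycn, chr12:12927186-12927386: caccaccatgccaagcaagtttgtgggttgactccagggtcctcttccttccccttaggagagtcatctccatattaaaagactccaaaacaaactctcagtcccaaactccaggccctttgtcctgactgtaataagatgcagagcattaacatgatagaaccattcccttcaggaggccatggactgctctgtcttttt

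In the Klf13 window the composite ran on into an octamer on the same strand, so that the same bases counted for both. Its composite began 56 bases to the right of the summit, and those of the Ythdf3 and Lcorl windows began 59 bases to the right and 24 bases to the left of it. Klf13 encodes a Krüppel-like factor, Lcorl a nuclear protein related to the corepressor LCOR, and Mycn a MYC family protein that promotes stem cell growth.

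Regions called only at d2 made up 16.4% of the intergenic distal regions (95% Wilson interval 15.8 to 17.1), against 13.8% of all union regions. The same share was 17.6% of distal regions in gene bodies (16.9 to 18.3) and 9.87% of promoter regions (9.45 to 10.3). Of all 5664 union regions called only at d2, the 1819 intergenic distal ones were 32.1%. Regions called only at d4 numbered 1718 among the intergenic distal regions, or 15.5%, against 9.93% of all union regions, and 888 intergenic distal regions were called in all 4 libraries. A further 2052 distal regions called only at d2 lay in gene bodies and serve below as a second comparison.

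The count of 1819 rests on the calls of 2 libraries at each time point. A region in both d2 libraries missed membership through a peak in d4 replicate 1 alone in 227 cases, and in d4 replicate 2 alone in 172 cases. Regions called in a single library numbered 1418 in d4 replicate 1, 1012 in d4 replicate 2, 1977 in d2 replicate 1 and 1104 in d2 replicate 2. With d2 replicate 1 or d2 replicate 2 left out the count became 2941 or 3824, as only 1 library then had to hold the peak. Keeping peaks with −log10 q of at least 10 gave 818 regions, and keeping the 15000 strongest peaks of each library gave 769.

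The d4 libraries held 22511 and 21299 peaks, and the d2 libraries 26865 and 24544. Fold enrichment and p-value together gave back a whole number of fragments at the summit of every peak, to within 0.01 in −log10 p, and with it the background coverage of each library. This background was 0.755 and 0.744 fragments at d4 and 0.568 and 0.483 at d2, so the d2 libraries were the shallower ones.

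The promoters of a few marker genes were read as a check of the labels. Of the 41 pluripotency genes listed, 22 had a promoter called in all 4 libraries and 4 had one called only at d2, so that most of these promoters did not separate the time points. Over all protein-coding genes, 46.1% had a promoter called in all 4 libraries, 3.43% only at d2 and 0.479% only at d4. At the promoter of Pou5f1, which encodes OCT4, no peak was called in either d4 library, against folds of 10.6 and 12.2 over background in the d2 libraries. The promoter of Zfp42, a marker of naive pluripotency also known as Rex1, likewise had no peak at d4 and folds of 8.41 and 15.8 at d2. Others of the list differed from these. The Sox2 promoter had folds of 6.35 and 6.07 at d4 and 6.10 and 6.98 at d2. That of Nanog had a peak in d2 replicate 2 alone, at 8.22. That of Gdf3 had folds of 8.05 and 10.3 at d4, and at d2 a peak in replicate 2 alone, at 5.42. Of the 31 endothelial genes listed, 12 had a promoter called in all 4 libraries, 2 only at d2 and 0 only at d4. Cdh5, which encodes VE-cadherin, had a promoter peak in d4 replicate 1 alone, at a fold of 6.14. Kdr, the VEGF receptor gene, had one in all 4 libraries, with 7.75 and 8.63 at d4 and 10.0 and 6.40 at d2.

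**Figure D1:**
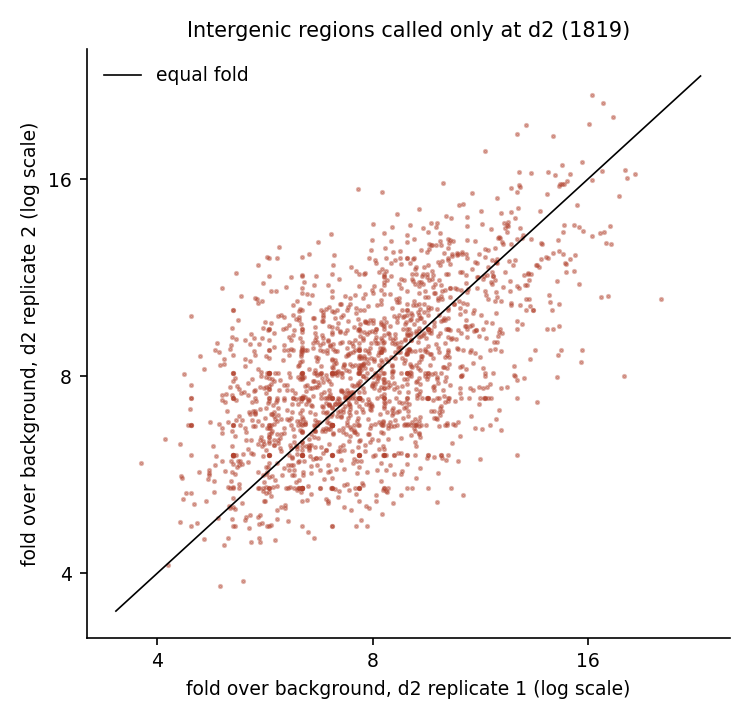
Fold enrichment over background at the summit in d2 replicate 1 (horizontal) and d2 replicate 2 (vertical), both on log scales, for the 1819 intergenic distal regions called only at d2. Each point is a region and the line marks equal fold. In 1177 regions the fold is between 5 and 10 in both libraries, and the 208 regions at 10 or more in both form the upper right corner.

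Peaks of these regions were of moderate height. Fold enrichment ranged from 3.80 to 20.2 in d2 replicate 1, with a median of 7.72, and from 3.83 to 21.5 in d2 replicate 2, with a median of 8.04. The summit held a median of 14 fragments in each library. In 1728 regions the fold was at least 5 in both libraries, and in 208 it was at least 10. Across regions, which share libraries and are not replicates, the folds of the 2 libraries had a Pearson r of 0.58 on the log2 scale and a Spearman rank correlation of 0.53. The plot of fold in the d2 libraries shows this spread around the line of equal values.

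The summits of the 2 d2 peaks lay a median of 37 bp apart, and within 50 bp in 1134 regions (62.3%). Regions were narrow, with a median width of 263 bp and quartiles of 197 and 341 bp. For comparison, regions called in all 4 libraries had a median width of 394 bp. The nearest d4 peak was a median of 24372 bp away. In 25 regions (1.37%) it was within 500 bp.

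The limits of the choice cut through a continuous range. The regions just inside the 1000 bp limit lay 1002 bp from Ccdc60, 1006 bp from Gm42527 and 1019 bp from Cd300lg, with d2 folds between 5.97 and 8.30. Just outside it, regions 992 bp from Gm11222, 979 bp from Rfx4 and 953 bp from Slc6a5 had folds between 4.596 and 7.42. The weakest member by q-value, near Gm23882, had a −log10 q of 3.03 in d2 replicate 1 and 8.18 in d2 replicate 2, where the deposited lists end near 3.00. Regions that missed membership through d4 replicate 1 alone had a median −log10 q of 7.53 in that library, and those that missed it through d4 replicate 2 alone had 7.29.

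The regions lay a median of 15.6 kb from the nearest transcript start of any gene (95% interval of the median 14.6 to 16.8), closer than intergenic regions called only at d4, at 20.9 kb (19.3 to 22.3), and farther than those called in all 4 libraries, at 12.5 kb (11.2 to 13.5). Measured to protein-coding genes the medians were 38.1 kb for regions called only at d2 and 59.0 kb for those called only at d4, with intervals of 34.7 to 41.8 and 54.2 to 64.8. In all, 664 regions (36.5%) were within 10 kb of a start, against 28.9% of the regions called only at d4, and 118 (6.49%) lay beyond 100 kb of any. The remotest was 564 kb from any annotated start. Single-library regions gave a median distance of 19.0 and 18.9 kb in the d4 libraries and of 18.8 and 14.7 kb in d2 replicates 1 and 2. The value of d2 replicate 1 was thus close to those of the d4 libraries, and only that of d2 replicate 2 was lower.

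Few regions were grouped along the genome. A neighbour within 25 kb was found for 265 of 1819 (14.6%, 13.0 to 16.3), and the share was 14.6% for regions called only at d4. There were 9 chains of 3 regions and none longer. They included 3 regions within 4.45 kb near Rab12, which encodes a small GTPase, 3 within 27.2 kb near Cdkn1c, an imprinted inhibitor of the cell cycle, and 3 within 38.2 kb near Sfmbt2, an imprinted gene needed in the placenta. Further chains lay near Kdm7a, a histone demethylase gene, and near Ptma, which encodes prothymosin alpha. By chromosome, the regions called only at d2 were between 12.8% (chromosome 16) and 19.1% (chromosome 5) of the intergenic distal regions on the autosomes and 18.2% on chromosome X.

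Base composition set the summits apart from their surroundings. The median GC content of the 201 bp windows was 52.7% (interval 52.2 to 52.7), against 44.8% for windows 1000 bp to the left or to the right. It was 50.7% in intergenic regions called only at d4 and 57.2% in those called in all 4 libraries. Repeat-masked bases made up a mean of 12.3% of the windows, against 28.1% and 29.3% in windows 1000 bp to the left and right. The mean was 8.64% in regions called only at d4 and 5.69% in those called in all 4 libraries.

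All 31 motifs were searched as exact letters on both strands of the 201 bp windows, without any scoring of mismatches. Shares count windows with at least 1 match. The intervals cover counting error only, because regions of 1 genome share their libraries and are not replicates of a condition. Against intergenic regions called only at d4, the difference in share was wholly above 0 for 11 motifs and wholly below 0 for 9, and its interval held 0 for the other 11.

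**Figure D2:**
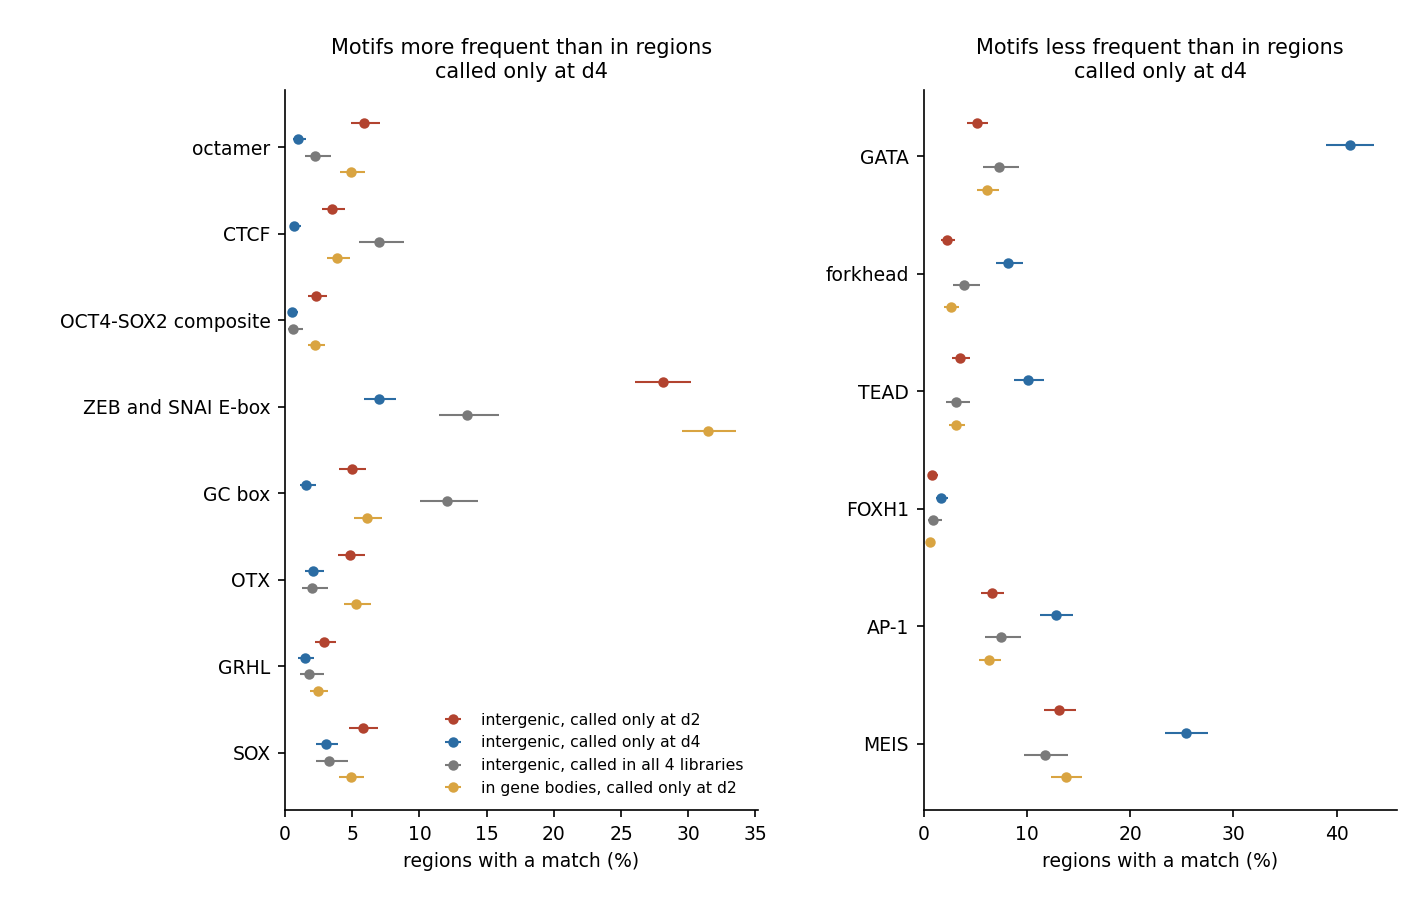
Share of 201 bp summit windows with a match, in percent, for 8 motifs more frequent (left) and 6 less frequent (right) in intergenic regions called only at d2 than in those called only at d4. Points are shares and bars 95% Wilson intervals, for 1819 intergenic regions called only at d2 (red), 1718 called only at d4 (blue), 888 called in all 4 libraries (grey) and 2052 gene-body regions called only at d2 (yellow). Red and yellow points lie close together, and the blue GATA point lies far to the right of the rest.

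Of the motifs of pluripotency factors, the octamer, the OCT4-SOX2 composite and the SOX site were more frequent than in regions called only at d4. The octamer ATGCAAAT, bound by OCT4 and other POU factors, was in 107 regions, or 5.88%, against 0.9895% of those called only at d4, a difference of 4.89 percentage points (95% Newcombe interval 3.74 to 6.13). Over all union regions the share was 1.89%, and in windows 1000 bp to either side it was 1.32%. The OCT4-SOX2 composite TTGTNATGC, at which the pair binds side by side, was in 42 regions, or 2.31% (1.71 to 3.11), against 0.524%, a difference of 1.79 points (1.03 to 2.62), with 0.675% over all union regions. Octamer and composite share letters, and in 9 regions they shared bases. Taken as either motif they were in 139 regions, 7.64%. A plain SOX site, CCATTGT, was in 5.77%, against 3.03% of regions called only at d4 (difference 1.40 to 4.11 points) and 2.67% of all union regions.

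So were the OTX, GRHL and ZEB and SNAI motifs. The OTX motif CTAATCC, bound by the epiblast factor OTX2, was in 4.84% of the regions, against 2.10% of those called only at d4 (difference 1.55 to 3.97 points) and 2.23% of all union regions. The GRHL motif AACCNGTT, bound by grainyhead-like factors of epithelial cells, was in 2.91%, against 1.46% (difference 0.494 to 2.45 points) and 1.42% of all union regions. For GRHL the interval held 0 at the stricter q-value limit, with the strongest peaks alone and without d2 replicate 1, where the difference was 0.806 points. The ZEB and SNAI E-box CAGGTG, to which repressors of epithelial genes and also E proteins bind, was the most common of the described motifs. It was in 511 regions, or 28.1%, against 6.98% of those called only at d4, a difference of 21.1 points (18.7 to 23.5), and in 16.9% of all union regions. The ZIC motif CCTGCTG, which is outside the 8 described for their ratio, was in 22.8%, against 13.9% (difference 6.37 to 11.4 points) and 14.3% of all union regions.

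The CTCF motif, AGGNGGCGC, and the GC box, GGGCGGGG, were also more frequent, though most of all in shared regions. CTCF, an insulator protein that anchors chromatin loops, had its motif in 64 regions, or 3.52%, against 0.698% of regions called only at d4, but in 6.98% of those called in all 4 libraries and in 4.41% of all union regions. The GC box, bound by SP and KLF factors, was in 4.95%, against 1.57% of regions called only at d4, 12.05% of those called in all 4 libraries and 12.6% of all union regions. Both were thus more frequent than at regions called only at d4 and less frequent than at regions shared by both times. At least 1 of the 8 motifs was in 885 regions (48.7%, 46.4 to 51.0), against 277 regions (16.1%) called only at d4. The 8 had been chosen for being more frequent than in regions called only at d4, so this gap is not a separate result. The share was 36.1% in regions called in all 4 libraries and 50.1% in gene-body regions called only at d2.

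**Figure D3:**
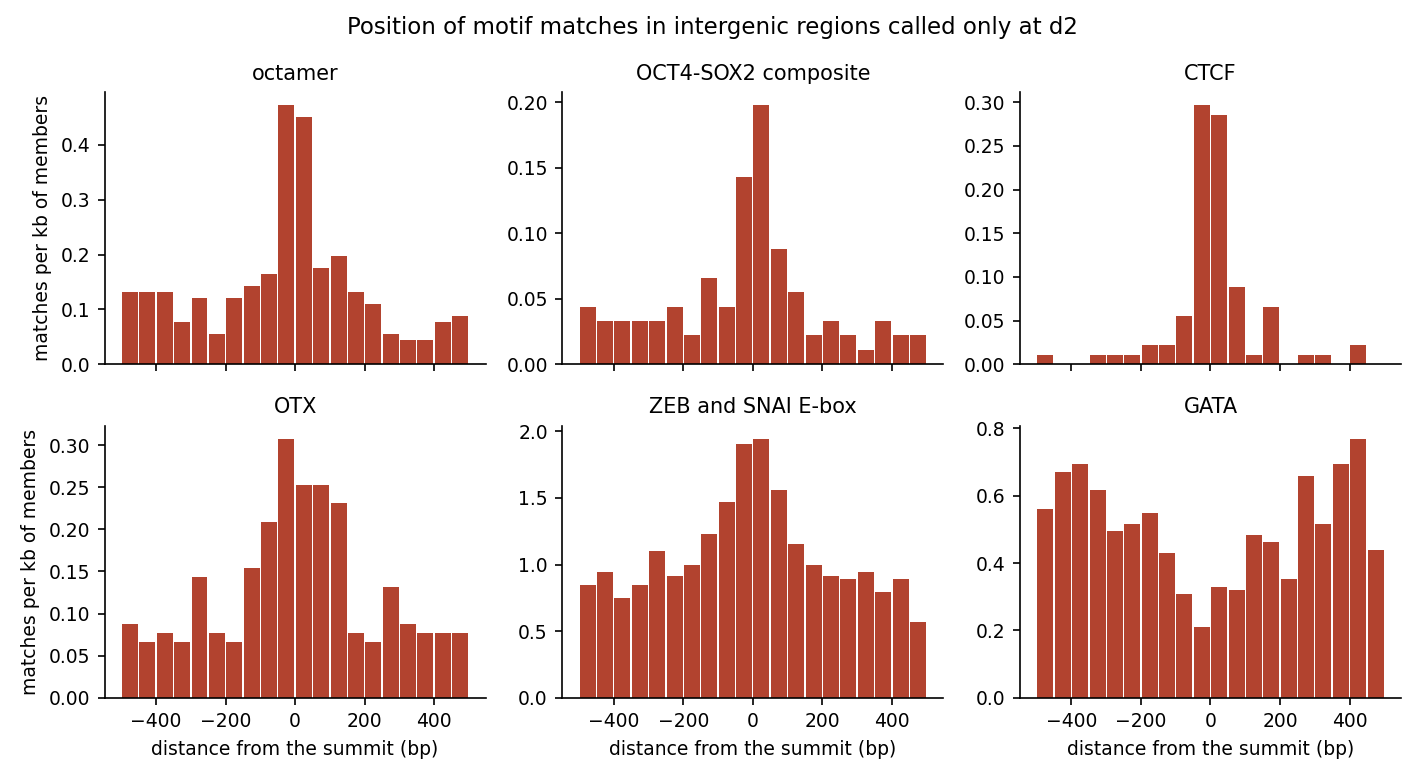
Matches per kb of sequence in bins of 50 bp, within 500 bp of the summit, for 6 motifs in the 1819 intergenic regions called only at d2. Octamer, OCT4-SOX2 composite, CTCF, OTX and ZEB and SNAI matches pile up at the summit, whereas GATA matches are fewest there. Vertical scales differ between panels.

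Matches were concentrated at the summits. Within 50 bp of the summit the octamer occurred 0.462 times per kb, against 0.0907 times per kb between 300 and 500 bp away, a ratio of 5.09. The ratio was 5.90 for the OCT4-SOX2 composite, 3.64 for OTX, 2.59 for SOX, 2.34 for the ZEB and SNAI E-box and 2.27 for GRHL. The CTCF motif occurred 0.291 times per kb at the summit and 0.00687 times per kb at the greater distance, a ratio of 42.4 that rests on 53 central and 5 distant matches. The plot of match positions shows these peaks and also the dip of GATA, with a ratio of 0.435. Median GC content was 52.7% at the summits and 44.8% in windows 1000 bp away, and whether this accounts for the dip was not tested.

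Of the motifs less frequent than in regions called only at d4, GATA differed by the most percentage points. Its letters, AGATAA, which GATA factors of heart and blood bind, were in 94 regions, or 5.17% (4.24 to 6.28), against 41.3%, a difference of −36.1 percentage points (−38.6 to −33.5). That share was also below the 10.6% of all union regions, the 11.2% of windows 1000 bp to either side and the 7.32% of regions called in all 4 libraries (difference −4.27 to −0.255 points). These 3 comparisons were not made within bands of GC content, which was lower in the windows to either side. With 200 bp to each side of the summit the GATA share was 13.9%, against 54.0% in regions called only at d4. Forkhead sites, TGTTTAC, were in 2.25%, against 8.21%, TEAD sites, CATTCCA, in 3.52%, against 10.1%, and MEIS sites, CTGTCA, in 13.1%, against 25.4%. Over all union regions these shares were 3.15%, 3.495% and 14.5%. AP-1 sites, TGANTCA, were in 6.60%, against 12.8%, and FOXH1 sites, AATCCACA, in 0.825%, against 1.69%, with 6.18% and 0.746% over all union regions.

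The remaining motifs were outside the 14 described, which were taken by the ratio of shares, or had intervals that held 0. ETS (CNGGAAGT), TCF and LEF (CTTTGAT) and the CAGATG E-box were also less frequent, with 4.29%, 4.07% and 15.8% of regions, against 7.57%, 5.53% and 21.5%. The MYC E-box (CACGTG) and NFY (AGCCAAT) were more frequent, with 2.97% and 4.78%, against 1.80% and 3.32%. For ESRRB and NR5A (CAAGGTCA), orphan nuclear receptors of naive cells, the share was 1.59%, against 1.28%, and the difference lay between −0.496 and 1.13 points. For KLF (GGGTGTGG) it was 2.25%, against 1.51%, and between −0.170 and 1.66 points. Intervals also held 0 for TFCP2L1, PRDM14 (GGTCTCTAA), the CAGCTG E-box, CRE (TGACGTCA), NRF1 (GCATGCGC), YY1 (AAGATGGC), T-box (AGGTGTGA), RBPJ (GTGGGAA) and the p53 family. Over all union regions the shares were 6.77% for ETS, 2.77% for TCF and LEF, 13.4% for CAGATG, 4.75% for MYC, 5.87% for NFY, 0.9753% for ESRRB and NR5A and 2.38% for KLF, and those of the last 9 lay between 0.156% (PRDM14) and 16.7% (CAGCTG). KLF letters resemble the GC box, and both are read by overlapping families of factors.

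Because GC content differed between the classes, shares were also compared within bands of it. Among windows under 50% GC the octamer was in 10.7% of 608 regions called only at d2, against 0.373% of 804 called only at d4, and between 50 and 55% GC in 4.99%, against 1.80%. At 55% GC or more its difference lay between −0.906 and 2.73 points. The ZEB and SNAI E-box was more frequent in each band, with 19.7%, 30.5% and 33.8% of regions called only at d2 in order of rising GC, against 6.59%, 6.22% and 9.57%. GATA was less frequent in each, with 8.72%, 4.81% and 2.15%, against 51.6%, 35.8% and 24.8%. The GC box differed only in the band of 55% or more, with 11.4%, against 3.96% (difference 3.83 to 10.6 points), and for FOXH1 the interval held 0 in every band. Intervals also held 0 at 55% or more for the OCT4-SOX2 composite, OTX and SOX, under 50% for CTCF, and between 50 and 55% for GRHL.

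Motif shares were also compared across peak height. Ranked by the lower of the 2 d2 folds, the octamer was in 4.40% of the lowest fold quartile (2.86 to 6.69) and 8.13% of the highest (5.96 to 11.01), and OTX in 3.74% (2.35 to 5.90) and 7.69% (5.58 to 10.5). These intervals overlap. The GC box went the other way, with 6.37% (4.47 to 9.004) in the lowest and 3.08% (1.84 to 5.10) in the highest fold quartile. The ZEB and SNAI E-box was in 25.9% to 29.6% of every fold quartile.

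**Figure D4:**
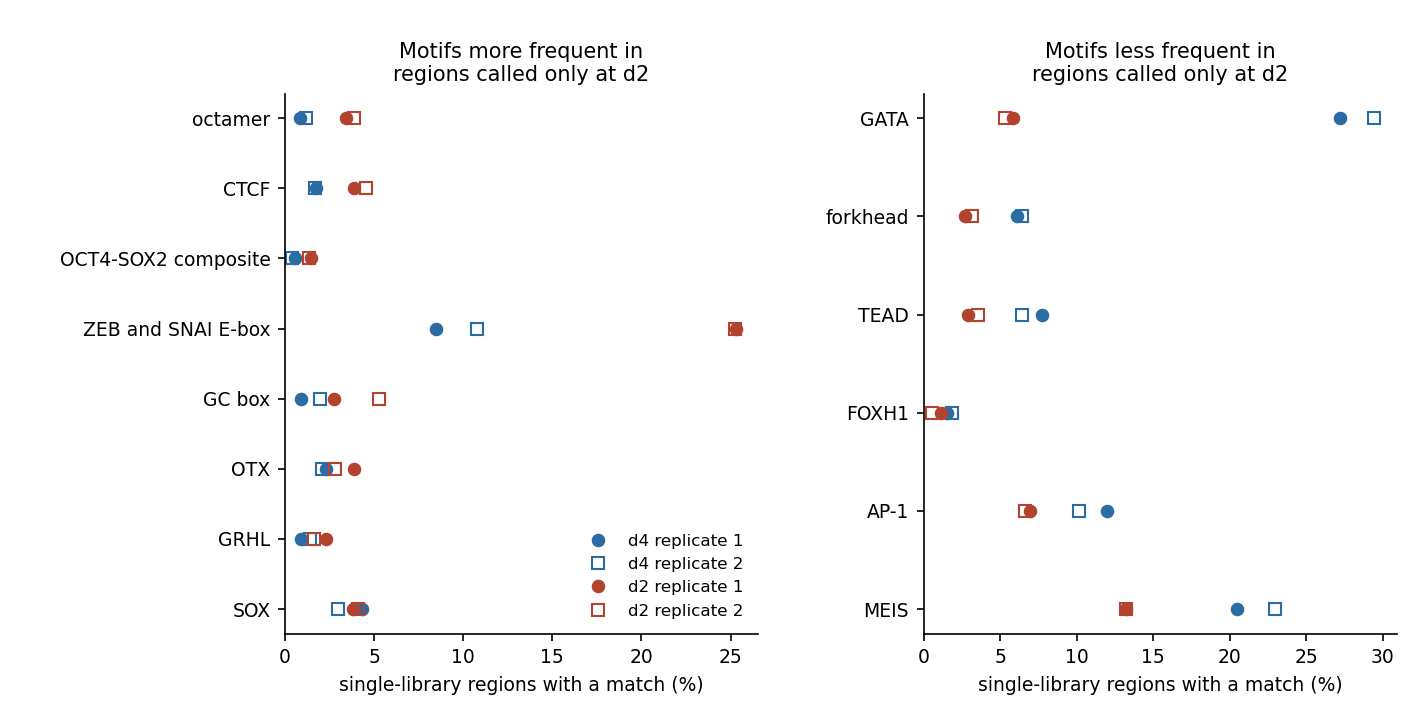
Share of intergenic distal regions called in a single library that had a motif match, in percent. Shown are the 8 motifs more frequent (left) and 6 less frequent (right) in intergenic regions called only at d2 than in those called only at d4. Each point is a library, with d4 in blue and d2 in red, replicate 1 filled and replicate 2 open. The time points do not overlap for any of these motifs except SOX.

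Regions called in only 1 library were not used in the choice and gave 1 value per library. The octamer was in 0.846% and 1.19% of the regions of d4 replicates 1 and 2, against 3.44% and 3.89% of those of d2 replicates 1 and 2. GATA was in 27.2% and 29.4% of the d4 single-library regions, against 5.82% and 5.34% of the d2 ones. The ZEB and SNAI E-box was in 8.46% and 10.8%, against 25.3% and 25.3%. The OCT4-SOX2 composite was in 0.564% and 0.395%, against 1.47% and 1.36%. The time points did not overlap in 23 of all 31 motifs, among them these 4 and 9 of the other 10 described ones, whereas for SOX the d4 shares of 4.30% and 2.96% enclosed the d2 shares of 3.79% and 4.08%. An exact two-sided permutation test over 2 against 2 libraries cannot go below p = 0.333, the value obtained for each motif without overlap.

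Regions called only at d2 carried similar shares of motifs between genes and within them. Of the 31 motifs, the difference between the intergenic and the gene-body regions had an interval that held 0 for 29. The ZEB and SNAI E-box was in 28.1% of intergenic and 31.5% of gene-body regions (difference −6.26 to −0.500 points), and the T-box motif in 0.770% and 1.46% (difference −1.38 to −0.0152 points). The octamer was in 5.88% and 4.92% and the composite in 2.31% and 2.24%. An interval that holds 0 does not show that the shares are equal.

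The 10 regions with the highest lower fold lay at the upper end of the range, with folds from 15.7 to 21.5. The strongest, chr16:87207951-87208275, was 146 kb upstream of N6amt1, a methyltransferase gene, and had folds of 17.3 and 19.9 in d2 replicates 1 and 2. It held OTX and AP-1 matches. The second, 77.4 kb upstream of Cdh11, a cadherin gene of mesenchyme, had folds of 16.8 and 20.9 and is the E-box window printed above. The region 55.7 kb downstream of the Nrcam start, which belongs to a neural adhesion molecule, had folds of 18.6 and 16.3 and held no motif searched. A region 9.27 kb upstream of the zinc finger gene Zfp945 reached folds of 16.2 and 21.5, with NFY and MEIS matches.

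Among the same 10, regions with an OCT4-SOX2 composite held ranks 7 and 10. They are the Ythdf3 window, with folds of 18.1 and 16.1, and the Lcorl window, with 15.7 and 17.0. The other members of this group lay 392 kb from Ptbp2, a splicing factor gene, with OTX and E-box matches, 30.2 kb from Arhgap42, 626 kb from Cntnap5b, a neuronal adhesion gene, and 222 kb from Gm49339. None of the 10 lay within 8 kb of a d4 peak, the closest being the Zfp945 region at 8.98 kb.

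Protein-coding genes nearest to a member numbered 1477 of 21924 (6.74%). For 1202 of them it was a single region, and 11 genes had 4 or more. Promoters of the nearest genes were mostly open at both times. Counting each region once, the nearest protein-coding gene had a promoter peak shared by all 4 libraries in 58.2% (55.9 to 60.5), against 64.6% for regions called only at d4 and 46.1% of all protein-coding genes. A promoter peak called only at d2 was next to 3.79% of the regions (3.01 to 4.77), against 3.03% of the regions called only at d4 and 3.43% of all protein-coding genes.

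Sox9, which encodes a SOX factor of neural crest and cartilage, had the most, with 5 of its 18 intergenic distal regions. They lay 19.1, 28.9, 58.0 and 88.5 kb downstream and 584 kb upstream of its starts. The region at 28.9 kb had folds of 14.3 and 12.3 in d2 replicates 1 and 2, with a d4 peak only 0.144 kb from it, and the one at 19.1 kb had 6.00 and 8.48. Both held an octamer and an OCT4-SOX2 composite, and the one at 58.0 kb, with folds of 9.20 and 11.7, held an octamer. Another 3 intergenic regions near Sox9 were called only at d4, and its promoter was open in all 4 libraries.

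Mycn had 4 of its 8 regions, between 13.0 and 246 kb from its start. The nearest had folds of 11.7 and 13.4, and the other 3 had folds between 6.16 and 7.54, OTX matches being present in the regions at 54.7 and 119 kb. Mycn had no intergenic region called only at d4. Its promoter, however, had a peak in both d4 libraries, at folds of 4.26 and 7.70. At d2 it had one in d2 replicate 2 alone, at 5.81. Map3k1, a kinase gene of the JNK pathway, had 4 of 7, all upstream within 222 kb, with folds between 6.69 and 9.07.

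Other genes with 4 were Stt3b, an oligosaccharyltransferase gene, Tbl1xr1, a corepressor gene, Hs6st1, a heparan sulfate sulfotransferase gene, Egfl6, Kif2b, Atp23 and Rps29. For several of these the nearest start was remote. Rps29, which encodes a ribosomal protein, was 525 to 831 kb from its 4 regions, and Kif2b, a kinesin gene, 190 to 634 kb.

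**Figure D5:**
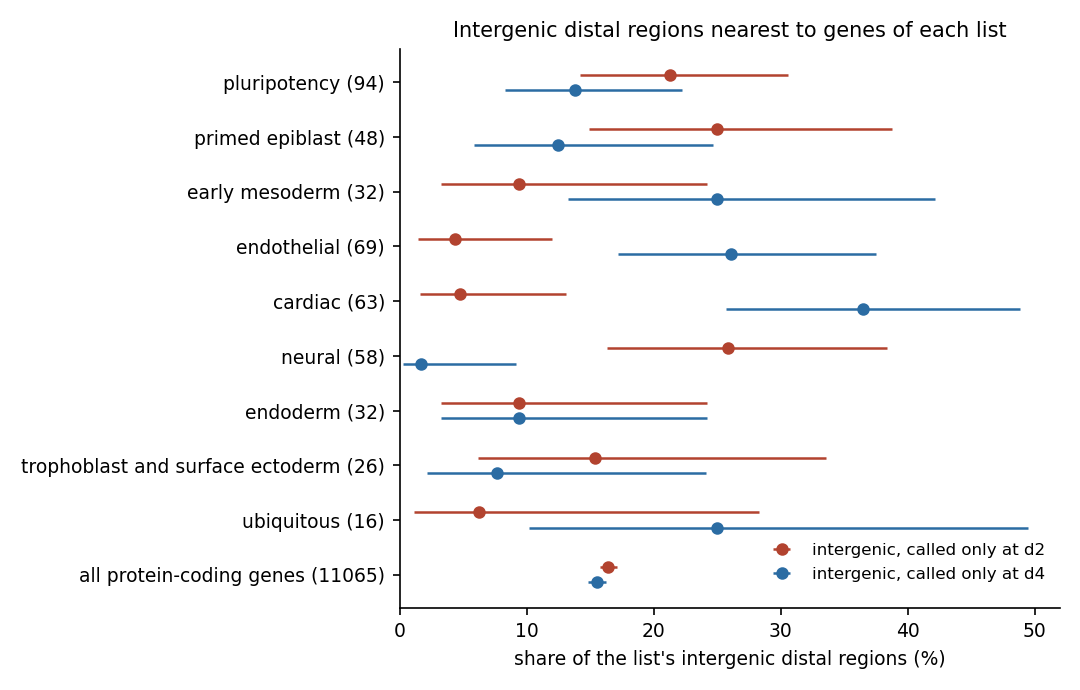
Share of the intergenic distal regions nearest to genes of each list that were called only at d2 (red) or only at d4 (blue), in percent with 95% Wilson intervals, with the number of intergenic distal regions of each list in parentheses. Red lies right of blue for the neural list, blue right of red for the endothelial and cardiac lists, and the intervals of the other lists overlap. The bottom row gives the shares over all protein-coding genes, 16.4% and 15.5%.

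Lists of lineage genes were compared by the share of their intergenic distal regions that were called only at d2, against 16.4% over all protein-coding genes. Developmental genes often have wide intergenic surroundings, so the number of regions of each list is given as well. Of 41 pluripotency genes, 13 were nearest to a region called only at d2, with 20 such regions of 94 (21.3%, 14.2 to 30.6), and 12 were nearest to one called only at d4, with 13 regions (13.8%). Of 22 genes of the primed epiblast, 9 were nearest to 12 of 48 regions (25.0%, 14.9 to 38.8), against 3 genes and 6 regions called only at d4 (12.5%). Both intervals include the share over all genes.

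Single pluripotency genes had 1 to 4 of these regions. Klf4, a Krüppel-like factor of naive cells, had one 51.0 kb downstream with folds of 10.8 and 9.76, although a d4 peak lay 1.99 kb from it. Zfp42 had one 100.4 kb upstream with folds of 8.29 and 10.7 and no d4 peak within 107 kb. Dppa3, a germ cell and naive marker also called Stella, had one 1.66 kb upstream with an octamer and folds of 6.61 and 8.84. Tfcp2l1, a self-renewal factor, had one at 144 kb, Tbx3 one at 29.6 kb and Sall4, a zinc finger factor, one at 39.8 kb. Gbx2, a homeobox target of LIF signalling, had 2 at 6.03 and 8.92 kb, with folds of 7.66 and 8.85 in the first and 8.24 and 8.39 in the second. Socs3, a feedback inhibitor of LIF signalling, also had 2, the nearer at 6.15 kb with folds of 8.49 and 12.9. Nr5a2, an orphan nuclear receptor gene, had 2 far upstream, at 363 and 418 kb, the first with folds of 10.6 and 9.97 and a d4 peak 0.345 kb from it. Fbxo15, a target of OCT4 and SOX2, had 2, the nearer at 21.7 kb with folds of 14.1 and 10.6.

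In the primed epiblast list, Otx2 had a region 6.55 kb from its start with folds of 6.34 and 8.58, the nearest d4 peak being 208 kb away. Its promoter likewise had no d4 peak and d2 folds of 5.02 and 4.67. Of the 22 genes of this list, 13 had a promoter called in all 4 libraries. Pou3f1, which encodes the POU factor OCT6, had a region 11.1 kb away with an OTX match and folds of 7.88 and 8.75. Foxd3 had 2 upstream, at 5.36 and 13.9 kb, the nearest d4 peak being 64.3 kb from the closer one. Nodal, a ligand of the Activin receptors, had one 11.6 kb upstream with folds of 7.89 and 9.64. The Nodal promoter, by contrast, had a peak in d4 replicate 1 alone, at a fold of 6.22. Zic2 had a region 3.13 kb downstream with folds of 9.25 and 9.03. Lef1, a mediator of WNT signalling, had 2, the nearer with folds of 8.05 and 12.03. Sox11, a SOX factor gene, also had 2, and Cdh2, the N-cadherin gene, had one at 803 kb. Fzd2, a WNT receptor gene, had one 8.49 kb upstream with folds of 7.87 and 6.89. Intergenic regions called only at d4 numbered 4 near Sox11 and 1 near Cdh2, against 0 near each of Foxd3, Lef1 and Fzd2.

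The protocol does not aim at the neural lineage. Of 20 neural genes, 10 were nearest to 15 of 58 regions called only at d2 (25.9%, 16.3 to 38.4), against 1 gene and 1 region called only at d4 (1.72%, 0.305 to 9.14). Pou3f2, the POU factor BRN2, had 3 of these regions, with folds from 5.16 to 10.6, although a d4 peak lay 0.652 kb from the weakest. Dlx2, En2 and Six3, homeobox genes of the forebrain and midbrain, had 2 each, with folds between 5.11 and 7.61. Sox1, Neurog2, Pax2, Pax3, Olig2 and Lhx2 had 1 each. A d4 peak lay 2.20 kb from the Neurog2 region and 2.80 kb from the Olig2 region. With a stricter q-value limit of −log10 q 10, or with the 15000 strongest peaks, 4 genes were nearest to a region. All regions called only at d2 then numbered 818 or 769. Without d4 replicate 1 or d4 replicate 2 the genes nearest to a region called only at d4 became 5 or 4. All intergenic distal regions called only at d4 then numbered 2742 or 3146, against 1718. The interval of the 25.9% called only at d2 includes the 16.4% over all genes.

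Lists of the lineages sought at d4 had lower shares called only at d2 than called only at d4. Of 31 endothelial genes, 3 were nearest to a region called only at d2, with 3 of 69 regions (4.35%, 1.49 to 12.02), against 8 genes and 18 regions called only at d4 (26.1%, 17.2 to 37.5). Of 21 cardiac genes, 3 were nearest to 3 of 63 regions (4.76%, 1.63 to 13.1), against 6 genes and 23 regions (36.5%, 25.7 to 48.9). The endothelial ones were Cdh5, with a region 190 kb upstream at folds of 6.61 and 8.997, S1pr1, a sphingosine phosphate receptor gene, and Cldn5. Cldn5 is a tight junction gene, and its region held an OCT4-SOX2 composite at folds of 9.21 and 6.75. A d4 peak lay 2.30 kb from the Cdh5 region. The cardiac ones were Foxc1, Gata5 and Tbx20, with folds between 5.86 and 8.33. These gene counts depended on the d2 libraries. Without d2 replicate 2 there were 9 endothelial genes, against 8 called only at d4, and 7 cardiac genes, against 6. All intergenic distal regions called only at d2 then numbered 3824, against 1814 called only at d4. Without d2 replicate 1 there were 4 endothelial genes, against 11, and 8 cardiac genes, against 7. All intergenic distal regions called only at d2 then numbered 2941, against 1926 called only at d4. Early mesoderm genes had 3 of 32 regions (9.38%, 3.24 to 24.2), near Dll1 and Gsc, against 8 called only at d4 (25.0%, 13.3 to 42.1), and without d2 replicate 1 the early mesoderm genes numbered 5, against 5.

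For the remaining lists the intervals were wide, and the endoderm count of genes was 5, 4 and 4 without d2 replicate 1, d2 replicate 2 and d4 replicate 1. Of 17 endoderm genes, 2 had 3 of 32 regions, namely Foxa2, a pioneer factor gene, with folds of 14.6 and 10.3 at a region 67.7 kb upstream, and Foxa1, with an OCT4-SOX2 composite 2.47 kb upstream at folds of 5.08 and 5.71. Of 15 trophoblast and surface ectoderm genes, 4 had 4 of 26 regions, near Tfap2a, Tfap2c, Trp63 and Grhl3. Tfap2c, an AP-2 factor gene also active in the epiblast and germ line, had the strongest, with folds of 9.46 and 10.8. Among 20 ubiquitously expressed genes only Eef1a1, a translation elongation factor gene, was nearest to a member, with 1 of 16 regions (6.25%, 1.11 to 28.3). Regions called only at d4 were nearest to 2 of the 20 genes, with 4 regions (25.0%, 10.2 to 49.5). With d2 replicate 1 left out, 3 of the 20 genes were nearest to a region called only at d2. With d2 replicate 2 left out 2 were.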

How the data were processed

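ATAC-seq libraries of d4 and d2 cells, 2 each, were compared through the peak lists. Per the labels and the study's methods, the authors trimmed reads (cutadapt), aligned them to mm10 (Bowtie2), removed mitochondrial, duplicate and multimapped reads, called peaks in each library separately without a control (MACS2) and removed blacklisted regions. MACS2 was given paired-end fragments together with shift and extension settings meant for the transposase cut site, and the deposited q-values end near the 0.001 limit. The deposited values are the fold enrichment at the summit, a ratio, the −log10 of p- and q-values, an integer score derived from q, and the summit offset. No reads per region are held, so the authors' count test was not run, and samples were grouped by the day in their titles. Members and gene lists were chosen with earlier results of these data known.

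Peaks sharing 1 bp or more were joined with Python 3.11.15 (numpy 2.4.6, scipy 1.17.1, pysam 0.24.0). Positions came from GENCODE release M21 and sequence from GRCm38. Motifs were matched as exact letters on both strands within 100 bp of the strongest summit. Shares carry 95% Wilson intervals, differences Newcombe intervals and medians order-statistic intervals, which cover counting error only. Scripts were tested on simulated data. The 10 regions with the highest lower d2 fold, genes nearest to 4 or more members, up to 5 genes per list, and the 8 motifs with the highest and 6 with the lowest ratio to regions called only at d4 were named, as were the sequences. The text further names list genes and motifs beyond these limits, chosen after their values were seen. Alternatives were another overlap, q threshold, number of peaks, joining distance, promoter distance, gene set, window and summit, and leaving out each library. A gene that met the naming rule is not reported here. Depth is known only as background coverage.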

Additional observations from a re-analysis of the deposited data

How the results depend on the processing

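The number of regions was 818 when −log10 q had to reach 10, 769 for the 15000 strongest peaks per library, and lay between 1991 and 3824 with 1 library left out. Median distance to a transcript start was 17.98 kb at the stricter q-value, 17.9 kb with 15000 peaks per library, 17.7 kb with a promoter distance of 2500 bp and 41.0 kb with protein-coding genes only, and 15.2 to 17.2 kb with 1 library left out. In each of these settings it stayed below that of regions called only at d4. Median GC content was 53.5% with 50 bp and 50.6% with 200 bp to each side of the summit, and 51.7 to 53.2% with 1 library left out. The OCT4-SOX2 composite share was 3.12% with 15000 peaks per library, 1.65% with 50 bp and 3.19% with 200 bp windows, and 1.83 to 2.20% with 1 library left out. The GATA share was 2.42% with 50 bp and 13.9% with 200 bp windows, and 5.08 to 5.73% with 1 library left out. For the 14 described motifs, 15 alternatives each, chosen after seeing the data like those for the gene lists, gave 210 differences from regions called only at d4. The direction was kept in all of them, and the interval came to hold 0 in 7, which were 3 for GRHL and 4 for FOXH1. The 14 had been chosen for intervals that excluded 0 in the main setting, and the alternatives used the same peak lists. That the direction was kept is therefore no independent check.

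The lists of peaks gave no test that takes a replicate block except for the single-library motif shares. Libraries of the same number share only that number in the labels. With the replicate block, added after seeing the data, the d4 minus d2 difference in GATA share was 21.4 points for replicate 1 and 24.1 points for replicate 2 (mean 22.8), and that in octamer share −2.59 and −2.71 points (mean −2.65). The sign was the same in both numbers for each of the 14 described motifs except SOX, with 0.508 and −1.11 points, and an exact test over signs cannot go below p = 0.5 with 2 pairs. The neural genes nearest to a member numbered 4 to 14 over the alternatives, against 10. Absence of a peak does not show absence of accessibility, and a peak list gives no value at sites without a call. With 2 libraries per time point no exact p-value below 0.333 is reached. The printed intervals of differences in motif share cover counting error only, and the smallest detectable difference was not computed.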
